A study of Sus scrofa with 12 samples.

Results

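The hepatocyte transcription factors HNF4A, FOXA1, FOXA2, FOXA3, CEBPA, ONECUT1, PROX1 and NR5A2 and the intestinal homeobox factor CDX2 were followed in pig liver. They are 9 of the 31694 genes listed, taken by their symbols, and all 9 symbols were found. CDX2 was set beside the 8 factors, and the 9 genes were chosen together, by how their RPKM differed between the breeds in an earlier look at these same libraries. Their breed differences are therefore given as values with no p-value, and whether a member met the call rule is given only as a count.

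The libraries came from the whole liver of 70-day-old uncastrated male pigs, 3 of the Jinhua (JH) breed, labelled as the experiment, and 3 of the Landrace (LD) breed, labelled as the control. Each pig gave 1 mRNA library and 1 small RNA library, so the replicates are separate animals, and no treatment or transgene is named for either breed. The mRNA values are RPKM, reads scaled to gene length and to the reads of the library, and the miRNA values are RPM, reads scaled to the clean reads of the library. Log2 fold changes are JH over LD on log2(RPKM + 0.1), and each is followed by its standard error (SE).

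Hepatocytes are held in their adult state by a small group of transcription factors that bind together at liver enhancers and drive each other's genes. HNF4A, a nuclear receptor, is the hub of this network, FOXA proteins open chromatin for the others, and CEBPA drives metabolic genes. CDX2 does the corresponding work in the intestinal epithelium and is normally silent in liver, where its appearance is known mainly from intestinal metaplasia of the bile ducts.

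The recovered library totals ran from 5744908 to 7914515 reads. They are the totals by which the RPKM values were scaled, and are smaller than the clean reads that the paper gives for each library. The tissue label was borne out by the hepatocyte products: albumin (ALB) stood at 27533 to 53893 RPKM, transthyretin (TTR) at 6414 to 8782 RPKM and antitrypsin (SERPINA1) at 1139 to 2954 RPKM. Libraries JH3 and LD3 stood apart in both breeds, with the 18S ribosomal gene RN18S at 62257 and 20160 RPKM against 1570 to 7309 RPKM in the other 4. The median RPKM of the genes tested was 4.18 in JH3 and 4.19 in LD3 against 4.99 to 5.23 in the other 4. Limma was run on the 12993 genes with at least 0.5 RPKM in at least 3 libraries, and a call needed both an adjusted p (Benjamini-Hochberg) below 0.05 and a change of more than 1 on the log2 scale in either direction. It called 310 genes, or 2.39% of those tested, with 133 higher in JH (1.02%) and 177 lower in JH (1.36%), and 17.9% of the genes tested had an unadjusted p below 0.05. In whole tissue, fewer cells of a type and less RNA per cell cannot be told apart.

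All 8 hepatocyte factors were above 2 RPKM in all 6 libraries, and the JH and LD values of each of them overlapped. By their mean over the 6 libraries they ran in the order HNF4A (105 RPKM), CEBPA (101 RPKM), FOXA3 (51.8 RPKM), FOXA2 (20.1 RPKM), NR5A2 (15.5 RPKM), FOXA1 (14.9 RPKM), PROX1 (12.4 RPKM) and ONECUT1 (10.8 RPKM). CDX2 came last at 0.569 RPKM. Each neighbouring pair of factors in this order had overlapping ranges, and the only gap was between ONECUT1 and CDX2. HNF4A was above CEBPA in 3 of the 6 libraries, so the top place was shared, whereas CEBPA was above FOXA3 in 6 of 6 and FOXA3 was above FOXA2 in 6 of 6. FOXA2 and NR5A2 changed places, with FOXA2 higher in 4 of 6, and so did PROX1 and ONECUT1, with PROX1 higher in 3 of 6.

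**Figure D1:**
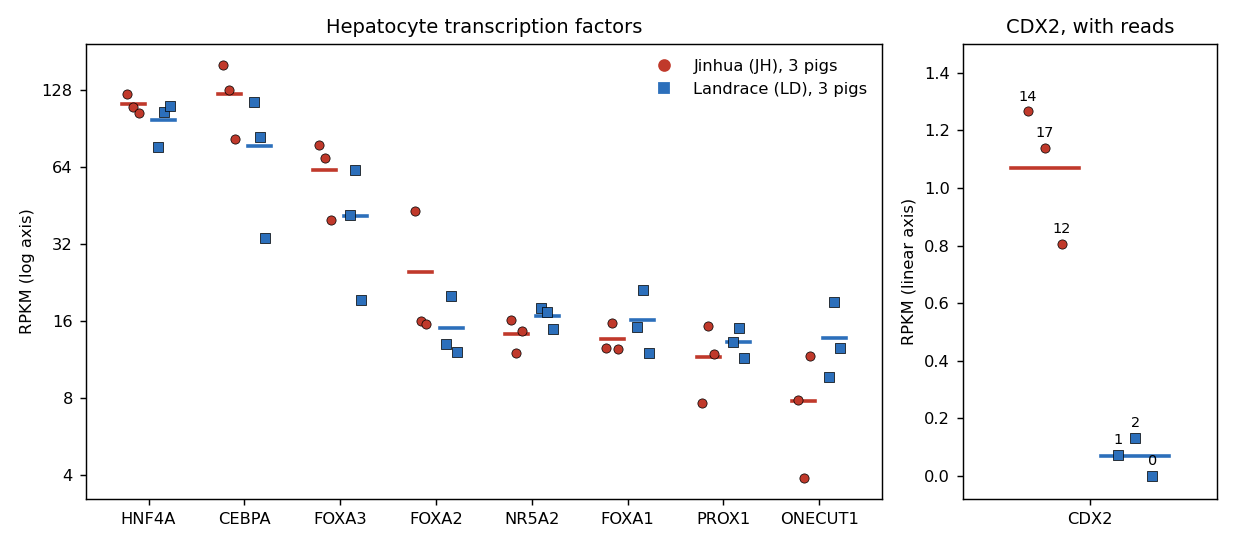
RPKM of the 8 hepatocyte factors (left, log axis) and of CDX2 (right, linear axis, with the recovered number of reads above each point) in 3 JH (red circles) and 3 LD (blue squares) pigs. Short lines are breed means; the breeds overlap for all 8 factors, while the JH values of CDX2 (0.806 to 1.27 RPKM) lie above the LD values (0 to 0.132 RPKM).

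HNF4A, the nuclear receptor at the centre of the network, was the steadiest of the highly expressed members. It stood at 124, 110.2 and 104 RPKM in JH1, JH2 and JH3, and at 76.7, 106 and 111 RPKM in LD1, LD2 and LD3. LD1 was the low library and the other 5 lay between 104 and 124 RPKM. The breed means were 113 ± 10.3 RPKM in JH and 97.8 ± 18.5 RPKM in LD (SD, n = 3), which is a log2 fold change of 0.22 (SE 0.24). Between 2618 and 4232 reads lay behind each value, and HNF4A ranked between 537 and 823 among all genes of a library.

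CEBPA, the basic leucine zipper factor of liver and fat metabolism, varied far more between pigs. Its values were 161, 127.6 and 82.8 RPKM in the JH libraries and 115, 84.1 and 33.9 RPKM in the LD libraries, in order of replicate number. JH1 was highest and LD3 was lowest, 4.75-fold apart, and JH3 lay below LD1. The means were 124 ± 39.2 RPKM in JH and 77.6 ± 40.8 RPKM in LD (SD, n = 3), with a log2 fold change of 0.79 (SE 0.45). Without LD3 it was 0.28, and without LD1 it was 1.16. The lowest value, in LD3, still rested on 710 reads, so counting error was small beside the spread between pigs. CEBPA was lowest in JH3 within JH and in LD3 within LD, the libraries with the lower medians, and after scaling to equal medians its highest and lowest libraries were 3.96-fold apart. Whether the makeup of these libraries had a part in the low values was not tested beyond that scaling.

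The 3 FOXA factors, winged helix proteins that act early in liver development and again in the adult, did not move as a group. FOXA3, the most abundant of them, stood at 77.8, 69.3 and 39.8 RPKM in JH and at 41.7, 62.4 and 19.4 RPKM in LD, with a log2 fold change of 0.69 (SE 0.43), which was 0.23 without LD3 and 1.07 without LD2. Its low libraries were the same as those of CEBPA within each breed, and CEBPA stood at 1.35 to 2.75 times FOXA3 across the 6 libraries. FOXA2 was at 43.2, 16.1 and 15.7 RPKM in JH and at 13, 20.1 and 12.2 RPKM in LD. JH1 alone set the JH mean apart, since the other 5 libraries lay between 12.2 and 20.1 RPKM. The log2 fold change of FOXA2 was 0.59 (SE 0.41), and without JH1 it was 0.11. FOXA1, which shares its DNA recognition with FOXA2, did not follow it: the values were 12.6, 15.7 and 12.5 RPKM in JH and 15.2, 21.3 and 12 RPKM in LD, with a log2 fold change of -0.22 (SE 0.28). The ratio of FOXA2 to FOXA1 was 3.44 in JH1 and between 0.856 and 1.26 in the other 5 libraries. In JH1, 559 reads fell on FOXA2 against 208 to 358 reads in the other libraries, which were deeper.

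ONECUT1, or HNF6, a cut homeobox factor of hepatocytes and bile duct cells, was the member that leaned most towards LD. It was at 7.87, 3.90 and 11.7 RPKM in JH and at 9.72, 19.1 and 12.6 RPKM in LD. JH2 was the lowest and LD2 the highest library, 4.89-fold apart, and JH3 lay above LD1, so the breeds overlapped. The means were 7.82 ± 3.89 RPKM in JH and 13.8 ± 4.79 RPKM in LD (SD, n = 3), with a log2 fold change of -0.89 (SE 0.41), which was -0.46 without JH2, and between 99 and 493 reads lay behind each value. PROX1, a homeobox factor of hepatocytes and of lymphatic vessels, was at 7.63, 15.3 and 11.9 RPKM in JH and at 13.2, 15 and 11.5 RPKM in LD. Only JH1 stood away from the others, and the log2 fold change was -0.24 (SE 0.30). NR5A2, the nuclear receptor also called LRH-1 that acts on bile acid synthesis, was the least variable member, at 16.1, 12.1 and 14.6 RPKM in JH and at 17.9, 17.4 and 15 RPKM in LD. Its highest and lowest libraries were 1.49-fold apart, and its log2 fold change was -0.24 (SE 0.23).

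**Figure D2:**
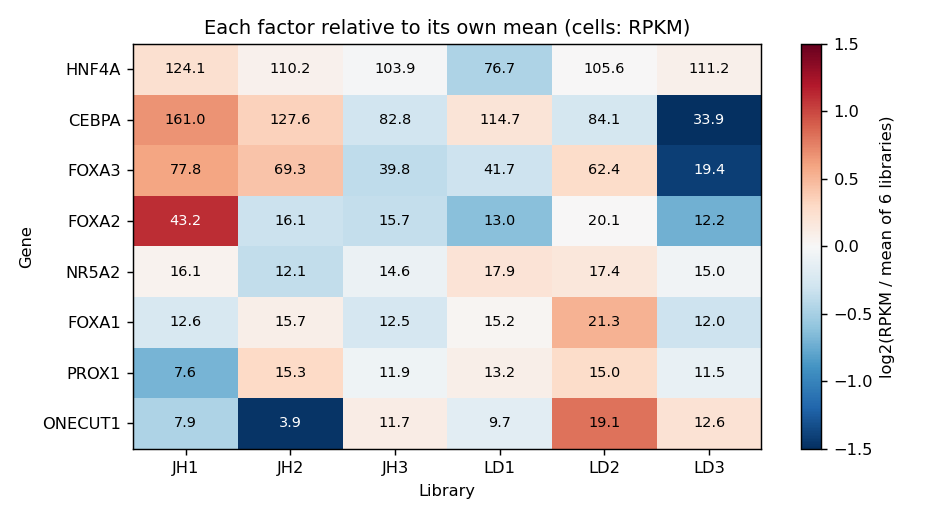
Each hepatocyte factor (rows) in each library (columns), coloured by the log2 ratio of its RPKM to its own mean over 6 libraries, with the RPKM written in the cell. CEBPA and FOXA3 share their low cells in LD3 (33.9 and 19.4 RPKM), FOXA2 is high in JH1 alone (43.2 RPKM), and ONECUT1 is low in JH2 (3.9 RPKM).

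The high and low places were not spread evenly over the pigs. In RPKM, JH1 was the highest library for 5 of the 9 members and LD3 was the lowest for 5 of the 9. These places depended on the scaling. After scaling to equal medians HNF4A was highest in LD3 (126), FOXA1 was lowest in JH1 (11.9) and FOXA2 was lowest in LD1 (12.5). How often JH1 was highest or LD3 lowest over all genes was not counted, so the places are no trait of the members. Summed over the 8 factors, JH1 held 450 RPKM and LD3 held 228 RPKM, with the other 4 libraries between 293 and 370 RPKM. The members differed in their pattern within these libraries, however, since JH1 was also the lowest library for PROX1 and LD3 was the second highest for HNF4A.

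CDX2 was low in every library and was the only member whose breeds did not overlap. It stood at 1.27, 1.14 and 0.806 RPKM in JH1, JH2 and JH3, and at 0.0732, 0.132 and 0 RPKM in LD1, LD2 and LD3. These values are 14, 17 and 12 reads in JH and 1, 2 and 0 reads in LD, on a gene counted over 1925 bases. The deposited values do not show where on the gene these reads lie, and whether some of them ran over from its neighbour URAD, which was also higher in JH, was not tested. A single read was worth between 0.0656 and 0.0904 RPKM, so each LD value lay within a few reads of 0, and the count of 0 in LD3 allows up to 3 reads, or 0.197 RPKM. Pooled over pigs, CDX2 had 43 of the 21239245 reads of the recovered totals in JH and 3 of the 22909188 in LD. The ratio of these shares was 15.5, with an exact 95% binomial interval of 4.95 to 77.9 that covers counting error only, not the spread between pigs. Since CDX2 was chosen by this same contrast, the interval describes the precision of the counts and is no test of a breed difference.

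The means of CDX2 were 1.07 ± 0.238 RPKM in JH and 0.0683 ± 0.0659 RPKM in LD (SD, n = 3). The log2 fold change was 2.86 (SE 0.60) with 0.1 RPKM added to each value, and its size followed the number added, from 0.95 with 1 RPKM to 4.44 with 0.01 RPKM. In limma voom on the recovered reads it was 3.69. CDX2 passed the filter on low values only through its JH libraries, and so had to differ. It alone of the 9 members met the call rule and it alone did not overlap, which is 1 of 9 in each case, where 2.39% of all genes tested were called and 23.4% did not overlap. Since the members were chosen by this contrast, nothing can be read from these counts. The call of CDX2 was met in 5 of 14 settings and in none of the 6 fits that left out 1 library.

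**Figure D3:**
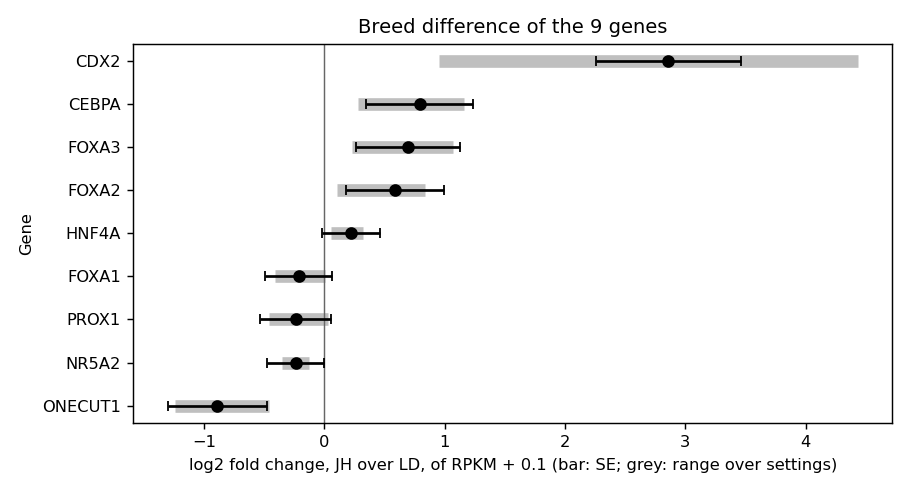
Log2 fold change of the 9 members, JH over LD, on RPKM + 0.1 (points, with bars of 1 SE), and the lowest to highest value over 13 other settings (grey). CDX2 spans 0.95 to 4.44 with the setting, ONECUT1 stays below 0 (-1.24 to -0.46), and FOXA1 and PROX1 reach just past 0.

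Among the 9 members, 5 log2 fold changes were above 0 and 4 were below, with a median of 0.22 against 0.04 over all genes tested. HNF4A, FOXA2, FOXA3, CEBPA and CDX2 stayed above 0 and ONECUT1 and NR5A2 stayed below 0 in all 13 other settings. All settings reuse the same libraries, and the fits without the filter and with the replicate block leave the fold change as it was. FOXA1 passed 0 without LD2 (0.002) and PROX1 without JH1 (0.03).

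The genes beside CDX2 were read next. URAD, which makes an enzyme of urate breakdown known from the liver, lies next to CDX2 in the RefSeq order of assembly Sscrofa11.1. It was at 33.1, 36.0 and 33.4 RPKM in JH and at 17.7, 14.2 and 9.31 RPKM in LD, and the breeds did not overlap. URAD was called higher in JH. Its log2 fold change was 1.35 (SE 0.28), with an adjusted p of 0.043 in limma. The call rested on all 6 libraries, since the adjusted p ran from 0.057 without JH3 to 0.123 without LD2 and was above 0.05 whichever library was left out. Voom gave an adjusted p of 0.0216. The RPKM of URAD was 26.1, 31.6 and 41.4 times that of CDX2 in the JH libraries and 242 and 108 times in LD1 and LD2, where CDX2 had 1 and 2 reads, and no ratio can be given for LD3, with 0 reads.

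On the other side of CDX2, the pancreatic and duodenal factor PDX1 was at 0.125 to 0.31 RPKM, and FLT3, beyond URAD, was at 0.104 to 0.579 RPKM, with overlapping breeds for both. GSX1 was listed at 0 in every library. Genes farther out did not pass the call, with log2 fold changes of 1.04 for the ubiquitin ligase gene LNX2 (adjusted p = 0.117 in limma) and 0.59 for the RNA polymerase subunit gene POLR1D (adjusted p = 0.332 in limma). Over all 9 members, RefSeq gave 36 genes in the nearest places on both sides. Of these, 25 had a value, 18 were tested and 1, URAD, was called, or 5.56% beside the 2.39% of all genes.

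Near CEBPA lies CEBPG, another leucine zipper factor of the same family. It was at 24.2, 17.8 and 18.6 RPKM in JH and at 10.6, 8.98 and 8.48 RPKM in LD, without overlap, and with a log2 fold change of 1.09 (SE 0.24) its adjusted p of 0.0521 in limma missed the threshold. CEBPG was called with a pseudocount of 1 (adjusted p = 0.0454), median scaling (0.0351), voom (0.029) and the replicate block (0.0472), and in no fit that left out a library (0.0592 to 0.166). Between them lies the noncoding gene LOC102160718, at 4.55 to 7.32 RPKM in JH and 2.60 to 3.47 RPKM in LD (log2 fold change 0.88, adjusted p = 0.141 in limma). A noncoding gene, LOC102159476, overlaps HNF4A in RefSeq and was listed at 10.8 to 14.4 RPKM, and LOC106507881 overlaps PROX1. The counting is not stated to use strand, so reads shared between such overlapping genes cannot be assigned.

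The wider set of liver transcription factors held 38 genes, of which 32 were tested. Limma called 1 of them, with 9 at an unadjusted p below 0.05, and their median log2 fold change was 0.07 against 0.04 over all genes. The breeds did not overlap for 11 of the 32. Over all genes, 2.39% were called, 17.9% were below that unadjusted p and 23.4% did not overlap. NR0B2, or SHP, the nuclear receptor without a DNA binding domain that represses HNF4A and NR5A2 in bile acid synthesis, was the gene called. Its values were 39.2, 22.2 and 38.8 RPKM in JH and 11.3, 10.9 and 6.04 RPKM in LD, with no LD pig in the JH range. The log2 fold change was 1.82 (SE 0.34), with an adjusted p of 0.0336 in limma and 0.0144 in voom. Without JH1, JH3, LD1, LD2 or LD3 the adjusted p was 0.088, 0.0524, 0.088, 0.077 and 0.0796, so that only the fit without JH2 kept the call (0.032).

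The bile acid receptor NR1H4, or FXR, which drives NR0B2, was at 31.8 to 40.01 RPKM in JH and 29.4 to 35.3 RPKM in LD, with a log2 fold change of 0.14 (SE 0.23). The most abundant factors of the list were ATF5, CREB3L3 and XBP1, all leucine zipper proteins, the last being a stress factor of the endoplasmic reticulum. ATF5 was at 284 to 478 RPKM in JH and 197 to 551 RPKM in LD, and XBP1 at 149.9 to 223 RPKM in JH and 202 to 244 RPKM in LD. CREB3L3, a liver factor of fasting lipid metabolism, was at 391.6, 313 and 178 RPKM in JH and 131, 160.2 and 126 RPKM in LD, without overlap, and its log2 fold change of 1.02 (SE 0.32) had an adjusted p of 0.142 in limma. It was called in the fit without JH3.

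Several further factors of the list lay apart by breed without passing the call in limma. The insulin responsive FOXO1 was at 2.70 to 5.76 RPKM in JH and 8.37 to 9.31 RPKM in LD (log2 fold change -1.09, adjusted p = 0.108). CUX2, a cut homeobox factor related to ONECUT1, was at 4.12 to 6.67 RPKM in JH and 2.55 to 2.83 RPKM in LD (log2 fold change 1.02, adjusted p = 0.094). TBX3 was at 8.10 to 14.1 RPKM in JH and 3.47 to 6.995 RPKM in LD (log2 fold change 0.97, adjusted p = 0.173). CEBPB, ONECUT3 and KLF15 were listed at 0 in every library, and no statement on their expression can be made from that.

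The products that these factors drive in hepatocytes were read from 50 genes, of which 41 were tested. Limma called 0 of them, with 13 at an unadjusted p below 0.05, and voom called 1 of the 26 it could test, ITIH2. The shares over all genes in limma were 2.39% called and 17.9% below that unadjusted p. The breeds did not overlap for 18 of the 41 products, beside 23.4% of all genes. The log2 fold changes were above 0 for 16 genes and below 0 for 25, with a median of -0.17 and a range from -1.45 to 1.40. ALB was at 33599, 27533 and 28465 RPKM in JH and at 52134, 37742 and 53893 RPKM in LD, with a log2 fold change of -0.67 (SE 0.28, adjusted p = 0.258 in limma). APOA1, the main protein of high density lipoprotein, leaned the other way at 22277, 16075 and 10301 RPKM in JH and 7613, 10116 and 7399 RPKM in LD (log2 fold change 0.90, SE 0.34, adjusted p = 0.203 in limma). Haptoglobin (HP) was at 8464 to 19301 RPKM in JH and 8417 to 10727 RPKM in LD, and the breeds overlapped.

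The lowest and the highest log2 fold changes of the product list belonged to metabolic enzymes. CYP7A1, the rate-limiting enzyme of bile acid synthesis and a target of HNF4A, NR5A2 and NR0B2, was at 6.68, 12.9 and 28.5 RPKM in JH and at 31.5, 44.8 and 36.2 RPKM in LD. No JH pig reached the LD range, and the log2 fold change of -1.45 (SE 0.46) had an adjusted p of 0.147 in limma. It was called in the fit without JH3. GYS2, the liver glycogen synthase, was at 139, 43.9 and 55.0 RPKM in JH and at 25.5 to 27.2 RPKM in LD (log2 fold change 1.40, adjusted p = 0.114 in limma). A1BG, a plasma glycoprotein, was at 2472 to 4562 RPKM in JH and 1070 to 1951 RPKM in LD (log2 fold change 1.34, adjusted p = 0.079 in limma).

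**Figure D4:**
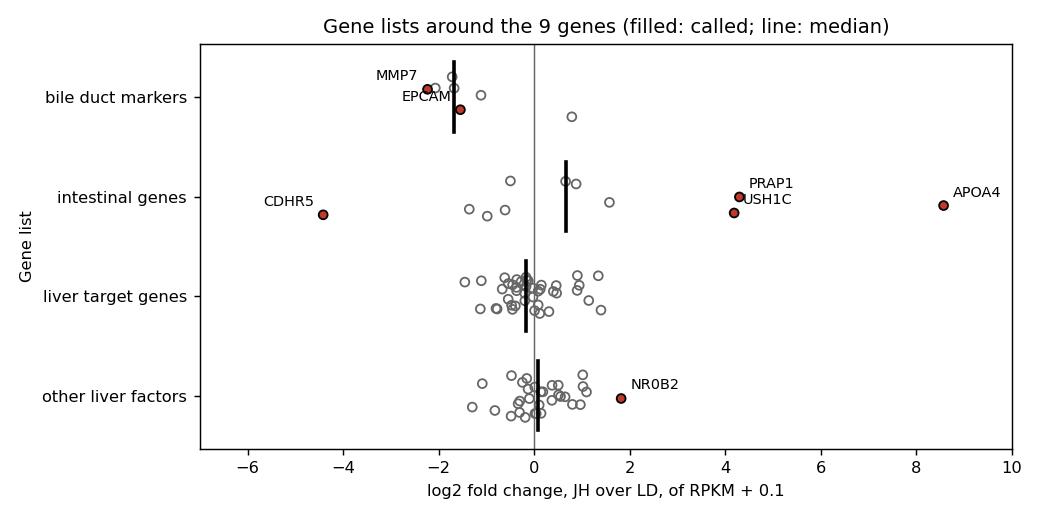
Log2 fold change, JH over LD, on RPKM + 0.1, for the tested genes of 4 lists (points; filled and named where called by limma; vertical lines are list medians; the vertical spread within a list has no meaning). The liver factors and products centre near 0 (medians 0.07 and -0.17), the intestinal genes spread from -4.42 to 8.57, and 6 of 7 bile duct markers lie below 0.

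The intestinal genes, with targets of CDX2 among them, were 36, of which 11 were tested, and limma called 3 higher and 1 lower in JH. They included APOA4, PRAP1 and CDHR5, whose change was already known when the list was written, so the count is no independent evidence of a direction. At an unadjusted p below 0.05 there were 8, and voom called the same 4. The median log2 fold change was 0.66 against 0.04 over all genes, with 6 genes above 0 and 5 below. The breeds did not overlap for 7 of the 11, beside shares over all genes of 2.39% called, 17.9% below that unadjusted p and 23.4% without overlap.

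USH1C, the scaffold protein harmonin of the brush border, was called higher in JH. It was at 4.80, 2.61 and 2.02 RPKM in JH, or 30, 22 and 17 reads, and at 0, 0.116 and 0.116 RPKM in LD, or 0, 1 and 1 reads. Its log2 fold change was 4.18 (SE 0.53), with an adjusted p of 0.00665 in limma, and it was called in all 13 other settings (adjusted p 0.00457 to 0.0442). Like CDX2, it passed the filter on low values only through its JH libraries, which favoured a call. PRAP1, a secreted protein of the gut epithelium that also occurs in liver, was at 6.06, 14.3 and 12 RPKM in JH and at 0.701, 1.68 and 0 RPKM in LD (log2 fold change 4.29, SE 0.89, adjusted p = 0.0442 in limma). It lost the call in 7 of 13 settings, among them the fits without JH1 (adjusted p = 0.0711), JH2 (0.119), JH3 (0.0742) and LD1 (0.117).

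APOA4, an apolipoprotein made by enterocytes and in some mammals also by liver, was at 6705, 1911 and 846 RPKM in JH and at 3.04, 3.10 and 19.6 RPKM in LD. Its log2 fold change was 8.57 (SE 0.84, adjusted p = 0.00203 in limma). CDHR5, a cadherin of the microvilli of gut, kidney and liver, went the other way, at 4.17, 4.04 and 1.41 RPKM in JH and 61.7, 69.7 and 60.2 RPKM in LD (log2 fold change -4.42, SE 0.39, adjusted p = 0.00124 in limma). USH1C and CDHR5, which belong to the same adhesion complex at the tips of microvilli, thus differed in opposite directions. A further member of that complex, ANKS4B, was at 1.73 to 3.85 RPKM in JH and 1.14 to 3.43 RPKM in LD.

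**Figure D5:**
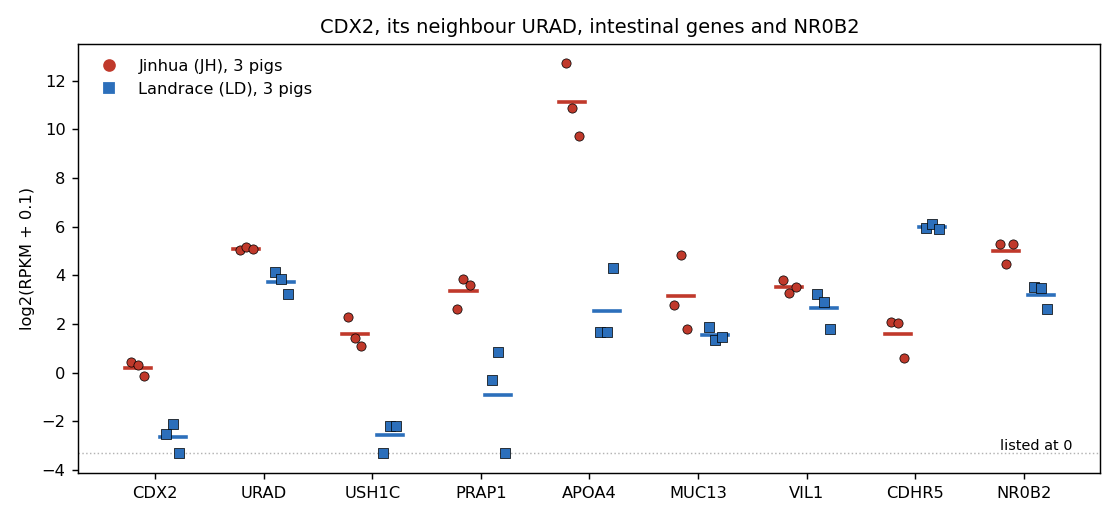
Log2(RPKM + 0.1) of CDX2, its neighbour URAD, 6 intestinal genes and NR0B2 in 3 JH (red circles) and 3 LD (blue squares) pigs, with lines at the breed means and a dotted line where a gene is listed at 0. JH lies above LD without overlap for CDX2, URAD, USH1C, PRAP1, APOA4, VIL1 and NR0B2, CDHR5 is reversed (1.41 to 4.17 against 60.2 to 69.7 RPKM), and MUC13 overlaps.

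Many genes of the intestinal list, not all of them particular to the intestinal epithelium, were listed at 0 or at low values in both breeds. The related factors CDX1 and CDX4, sucrase-isomaltase (SI), the goblet cell mucin MUC2, alkaline phosphatase (ALPI), GPA33, MEP1A, MYO1A, REG4 and TFF1 were listed at 0 in all 6 libraries. The liver genes APOB, SERPINF2, F12, F13B and HGD were also listed at 0 in every library, so a listed 0 does not show that a gene is silent. The cadherin CDH17, a direct CDX2 target, was at 0 to 0.038 RPKM in JH and 0 to 0.26 RPKM in LD, and LGALS4, KRT20, FABP2, SLC26A3 and TFF3 were at most 0.647 RPKM in any library. Among the genes that passed the filter, the microvillus protein VIL1 was at 9.60 to 13.8 RPKM in JH and 3.41 to 9.27 RPKM in LD (log2 fold change 0.88, adjusted p = 0.257 in limma). MUC13 was at 28.8 RPKM in JH2 against 2.40 to 6.74 RPKM in the other 5 libraries (log2 fold change 1.57, adjusted p = 0.246 in limma). The guanylin receptor GUCY2C leaned towards LD, with a log2 fold change of -0.98 (adjusted p = 0.249 in limma).

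Markers of other cell types that can carry some of the 9 genes were read beside them. Of 12 bile duct markers 7 were tested, 6 of these were below 0 and 2 were called lower in JH by limma, beside 1.36% of all genes, with a median log2 fold change of -1.68. EPCAM was at 1.27 to 1.32 RPKM in JH and 3.31 to 5.17 RPKM in LD (log2 fold change -1.55, adjusted p = 0.0301), and the protease gene MMP7 was at 2.85 to 5.24 RPKM in JH and 10.6 to 23.8 RPKM in LD (log2 fold change -2.23, adjusted p = 0.019). The call of EPCAM was lost without JH1, JH2, LD1, LD2 or LD3 (adjusted p 0.0566 to 0.111) and that of MMP7 without JH1, LD1 or LD2 (adjusted p 0.054 to 0.0952). KRT19 was at 2.24 to 4.71 RPKM in JH and 6.84 to 18.9 RPKM in LD, and SOX9 at 0.14 to 0.66 RPKM in JH and 1.1 to 3.98 RPKM in LD, while KRT7 and AQP1 were listed at 0 in all libraries. The whole list summed to 99.3 to 256 RPKM in JH and 90.8 to 194 RPKM in LD, most of it from CLDN4 (55.5 to 235 RPKM), which leaned to JH.

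ONECUT1 leaned the same way as the bile duct markers and CDX2 the opposite way, and the part of bile duct cells in either was not tested. Of 13 pancreas markers 0 were tested, since none passed the filter; together they summed to 0.149 to 0.223 RPKM in JH and 0.512 to 0.878 RPKM in LD, and PNLIP, INS, GCG and PTF1A were listed at 0. Of 6 lymphatic markers, read because of PROX1, limma tested 5 and called 0, with 0 at an unadjusted p below 0.05. Over all genes 2.39% were called and 17.9% were below that p, so little can be read from 5 genes. The lymphatic list summed to 47.1 to 61.0 RPKM in JH and 51.9 to 85.6 RPKM in LD. PDPN added little to it, at 0.205 to 0.357 RPKM in JH and 0.351 to 0.558 RPKM in LD, and did not pass the filter. Whether the other 5 genes came from lymphatic vessels or from other liver cells was not tested, so the sum is no measure of lymphatic vessels. Of 8 blood and immune markers tested, only haemoglobin beta (HBB) was called, as lower in JH, beside 1.36% of all genes. It was at 89.1 to 119 RPKM in JH against 210 to 389 RPKM in LD (log2 fold change -1.39, adjusted p = 0.0459 in limma). Without JH1, JH2, LD1, LD2 or LD3 HBB lost the call (adjusted p 0.0888 to 0.143).

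The genes whose pattern over the 6 libraries was most like that of each member were read as a description, by Pearson r on log2(RPKM + 0.1). With 12993 genes and 6 libraries that share depth and makeup, high values arise for any gene. CDX2 was most like GLI1 (0.998), the transcription factor of Hedgehog signalling, the clock gene PER2 (0.997) and AGPAT4 (0.994). The CDX2 pattern is mostly the breed contrast by which it was chosen, so other genes that differ by breed rank high, and no link between them was tested. The nearest genes to CEBPA were ZMAT2 (0.998), MRPL48 (0.995) and COG8 (0.994), and those nearest to FOXA3 were HECTD3 (0.995), ZNF142 (0.995) and CEP170B (0.992). HNF4A had lower values, with LOC102167404 (0.980), STIP1 (0.979) and LOC100739034 (0.976) nearest. FOXA1 was most like DROSHA (0.994), PDIA6 (0.989) and RMI2 (0.989), and FOXA2 most like LOC100737303 (0.993), ABLIM1 (0.985) and NCKAP5L (0.982). For ONECUT1 the nearest were LOC102161725 (0.990), LOC100154530 (0.988) and CGNL1 (0.987), for PROX1 ST5 (0.995), MITD1 (0.994) and ST14 (0.990), and for NR5A2 DLC1 (0.993), ULK1 (0.989) and LOC102166542 (0.988). No member was among the nearest 3 of another.

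In the small RNA libraries, which held 10672373 to 13932322 clean reads, 11 miRNAs of liver cells or with described links to HNF4A were looked up, 10 were tested and 1 was called. Over all 241 miRNAs tested, limma called 30 (12.4%), here by the unadjusted p and a change of more than 1 on log2(RPM + 0.5), with 5 higher and 25 lower in JH. That split depended on the scaling, with 8 higher and 12 lower after quantile normalization and 10 and 10 after median scaling, as the median of all miRNAs moved from -0.30 to 0.06 and 0.09. The called miRNA was miR-34a, which is described to target HNF4A mRNA, at 6.02, 8.85 and 4.50 RPM in JH and 45, 44.1 and 64.2 RPM in LD. Between 48 and 108 reads in JH and between 561 and 895 reads in LD lay behind these values. Its log2 fold change was -2.92 (SE 0.28, adjusted p = 7.43e-05 in limma), and under quantile and median scaling it was -2.51 and -2.52 (adjusted p 0.00691 and 0.0034).

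HNF4A mRNA, beside it, had the log2 fold change of 0.22 and the overlapping breeds given above. miR-24-3p, also described to act on HNF4A, was at 589 to 1070 RPM in JH and 615 to 960.4 RPM in LD, with a log2 fold change of 0.00 (SE 0.28). The hepatocyte miRNA miR-122 was at 147073 to 280427 RPM in JH and 174803 to 219414 RPM in LD (log2 fold change 0.01, SE 0.24). miR-192, which is shared by liver and gut, was at 65393 to 87448 RPM in JH and 66894 to 83837 RPM in LD (log2 fold change 0.01, SE 0.20). The most abundant miRNA of the list, miR-148a-3p, was at 204398 to 330913 RPM in JH and 142171 to 208005 RPM in LD (log2 fold change 0.49, SE 0.23, adjusted p = 0.191 in limma). miR-215 and miR-194a, relatives of miR-192 by seed and by cluster, had log2 fold changes of -0.39 (SE 0.32) and -0.20 (SE 0.24).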

How the data were processed

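The mRNA libraries were sequenced by the authors as single reads of 50 bases, which they filtered and placed on Sus scrofa 10.2 with TopHat2 (2.0.13). Gene counts from gfold were turned by the authors into the deposited RPKM values. The deposited RPM values give, per the authors, the reads of each miRNA relative to all clean reads. Each file held 1 column for 1 library, and samples were grouped by their public labels.

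Reads were recovered by searching for the library totals and gene lengths that turn RPKM into whole reads, which resolved 17932 of 19614 genes above 0 (91.4%). The resolved genes, the only ones open to voom, held from 49.99% of the library total in JH3 to 65.28% in JH1. For RPM, the clean reads are the totals, correct to a few reads, that made all values below 100 RPM whole to within 0.01 reads, and the smallest values above 0 were worth 10 reads. Intervals and floors (3 reads for a count of 0) cover counting error only.

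The breeds were compared over all features in limma 3.58.1 under R 4.3.3, with lmFit followed by eBayes (trend = TRUE). Before the log2 transform 0.1 was added to RPKM and 0.5 to RPM. Genes needed 0.5 RPKM, and miRNAs 1 RPM, in 3 libraries or more. The threshold for mRNA was an adjusted p (Benjamini-Hochberg) under 0.05, and for miRNA, as in the study, an unadjusted p under 0.05, both with a log2 change of more than 1 in size. The code was tested on simulated data, with changes larger than the log2 limit given to some features. For mRNA, 116 of 200 changed genes were called, with 8 false calls, so a gene not called may still differ. For miRNA, 40 of 40 were called, with 2 false calls. Other steps used Python 3.11.15, with scipy 1.17.1, numpy 2.4.6, pandas 2.3.3 and, for plots, matplotlib 3.10.9.

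The members and the gene lists were chosen with earlier results of these data known. Named genes are the 9 members, their neighbours in RefSeq (up to 2 on each side, assembly Sscrofa11.1, used for order and names only), the called genes of each list, otherwise the 3 genes of a list with the highest mean, and the 3 genes most alike to each member. Other genes were named after their values were seen. Symbols absent from the files were matched through RefSeq gene IDs or synonyms, so that NR0B2 and URAD are listed as LOC100526226 and LOC100515273. The comparisons were repeated with larger and smaller pseudocounts, without the filter, after quantile normalization, with the replicate number as a block, without the limit on the fold change, with adjusted p for miRNA and without each library. Voom on recovered reads and median scaling were added after the values were seen. Sequences and promoter motifs were not analysed here. Some genes of the lists are counted but not reported by name here.

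The replicate numbers shared by JH and LD were checked as possible pairs. In their deviations from the breed means, same-numbered libraries correlated at -0.016 to 0.177 for mRNA and at -0.321 to -0.072 for miRNA. The numbers were therefore not taken to pair pigs, although RN18S ranked them alike in both breeds.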

Additional observations from a re-analysis of the deposited data

How the results depend on the processing

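Over all genes, 310 were called, and 199 with a pseudocount of 0.01 and 200 without the filter on low values. Leaving out 1 library gave 79 (without LD1) to 406 calls (without JH3). Of the other liver factors 1 was called, but 2 (CEBPG and NR0B2) with a pseudocount of 1, with median scaling and with voom, and 0 to 1 when a library was left out. Of the liver products 0 were called, but 1 with the replicate block and with median scaling (A1BG), 1 with voom (ITIH2), and 0 to 3 when a library was left out (A1BG, CYP7A1 and TF without JH3). The intestinal genes kept 3 to 4 calls in all 14 alternatives. For miRNA, 30 were called, 14 with a pseudocount of 5, and 28 to 38 with a library left out.

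The replicate numbers name no shared litter or day, and same-numbered mRNA libraries correlated at 0.177 at most in the pairing check. RN18S ranked the numbers alike in both breeds, however. It was at 5991 and 7309 RPKM in JH1 and LD1 and at 1570 and 2108 RPKM in JH2 and LD2. In JH3 and LD3 it was at 62257 and 20160 RPKM, and these libraries had the lowest medians (4.18 and 4.19 RPKM). Whether libraries of the same number shared a step of handling was not tested. With the replicate block 253 genes were called, 200 of them called without it, CEBPG was the liver factor called (adjusted p = 0.0472), and 1 of 3 JH mRNA libraries and 0 of 3 JH miRNA libraries correlated best with their own number. URAD, NR0B2, PRAP1 and HBB had adjusted p of 0.0501, 0.0526, 0.0547 and 0.0526 under the block.

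With 3 pigs per breed and 3 CDX2 reads in all of LD, the LD level of CDX2 is not known more closely than a few reads allow, and its fold change depends on the number added. The 9 genes called and named beside the members (URAD, NR0B2, USH1C, PRAP1, APOA4, CDHR5, EPCAM, MMP7 and HBB) kept their direction in all 13 alternatives. These alternatives reuse the libraries in which the genes were called, so a kept direction is no independent support.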

Other observations

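In RPKM, library JH1 was the highest for HNF4A, FOXA2, FOXA3, CEBPA and CDX2. It was also the highest for some enzyme genes of glucose and amino acid metabolism and for the receptor gene PPARA, all picked after their values were seen. PCK1, the gene for the controlling enzyme of gluconeogenesis, was at 753 RPKM in JH1. It was at 85.0 and 28.0 RPKM in JH2 and JH3 and at 99.4 to 169 RPKM in LD. FBP1, of the same pathway, was at 1430 RPKM in JH1 against 357 to 740 RPKM in the other 5 libraries. Arginase (ARG1) was at 227 RPKM in JH1 against 45.4 to 96.3 RPKM in the others, and GYS2 was at 139 RPKM against 25.5 to 55.0 RPKM. The fasting receptor gene PPARA was at 19.4 RPKM in JH1 against 6.85 to 15 RPKM. TAT, another enzyme gene of this kind, did not follow, at 140 RPKM in JH1, the lowest of the 6 libraries, against 482 RPKM in JH3 and 353 RPKM in LD3. These values are those of 1 pig and no test was made on them.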
